A study of Mus musculus with 19 samples.

Results

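The miR-10 and miR-99/100 microRNAs (miRNAs) of mouse liver were followed in animals given a polycyclic aromatic hydrocarbon. They were taken by name from the 696 mouse miRNAs on the array, and all 5 were there: mmu-miR-10a, mmu-miR-10b, mmu-miR-99a, mmu-miR-99b and mmu-miR-100, written below without the mouse prefix. The series had 19 one-colour Agilent miRNA arrays, each with RNA from the liver of 1 male MutaMouse. This transgenic strain, 40.6 in the labels, carries a bacterial lacZ gene as a target for counting mutations, and every group, the controls included, carried it. Animals of 10 weeks received dibenz[a,h]anthracene (DB[a,h]A) in olive oil by gavage once a day for 28 days, and liver was collected 3 days after the last dose. Controls received olive oil alone (0 mg/kg/day, 5 arrays), and the low, middle and high dose groups received 6.25 mg/kg/day (5 arrays), 12.5 mg/kg/day (4 arrays) and 25 mg/kg/day (5 arrays). The labels describe 5 animals per dose, and 1 animal of the middle dose was not analysed here. Replicate numbers are those of the labels. DB[a,h]A is a ligand of the aryl hydrocarbon receptor and a carcinogen whose metabolites bind DNA. The series asked which liver miRNAs respond to it.

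The members descend from one ancient family. A miRNA finds its target messenger RNAs mainly through its seed, the bases next to its 5′ end. The miR-10 genes lie inside the Hox clusters, which pattern the body axis, and are transcribed along with them. The miR-99/100 genes each sit beside a let-7 and a miR-125 gene, in a cluster kept across animals, and Mtor, which codes for a growth-controlling kinase, is among their known targets.

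The 5 mature sequences show why the members form 2 seed groups and how little separates the names within each. They are from RefSeq (build GRCm38.p6, all on the + strand), matched to the -5p names, and capitals mark the seed (bases 2 to 8).
miR-10a: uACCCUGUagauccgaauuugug
miR-10b: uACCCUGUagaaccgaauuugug
miR-99a: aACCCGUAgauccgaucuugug
miR-99b: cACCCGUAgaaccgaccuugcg
miR-100: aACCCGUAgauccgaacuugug

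Of 1679 mature names in the RefSeq table, 2 carried the seed ACCCUGU, miR-10a and miR-10b, and 3 carried ACCCGUA, miR-99a, miR-99b and miR-100. Positions below count from 1 at the 5′ end, with the first-named miRNA's base first. miR-10a and miR-10b shared 22 of 23 bases and differed by U12A. miR-99a and miR-100 shared 21 of 22 and differed by U16A. miR-99b was the most distant of its group, at 18 of 22 bases shared with miR-99a (A1C, U11A, U16C and U21C). Aligned across the groups, miR-10a and miR-100 had 20 identical bases, 2 mismatches and 1 gap. No probe sequence was used here, so how far one member's probe reads another member that differs by 1 base was not tested.

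In GRCm38.p6 the mature miR-10a lies at chr11:96317186-96317208, within the span of Hoxb3 and between Hoxb5 and Hoxb4. The mature miR-10b lies at chr2:74726074-74726096, within the spans of Hoxd3 and Hoxd4. miR-99a (chr16:77598940-77598961) lies near Mirlet7c-1 and Mir125b-2. miR-99b (chr17:17830194-17830215) lies within Spaca6, near Mirlet7e and Mir125a. miR-100 (chr9:41531437-41531458) lies within its long non-coding host gene Mir100hg, near Mirlet7a-2 and Mir125b-1.

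Levels below are log2 signals divided by the array's own 75th percentile, taken over the 220 probes above background on all arrays, with a floor of -4.79. Each miRNA was read by its brighter probe, and signals of different probes are not amounts that can be ranked. A miRNA entered the tests when the scanner software called it detected on at least 4 arrays, which 208 of 696 did, and a call means an adjusted p under 0.05 (limma with slide as a block, Benjamini-Hochberg over the 208). Signal fell with dose before scaling: the 75th percentile averaged 357 ± 111 (control, SD, n = 5), 301 ± 74.6 (low, SD, n = 5), 215 ± 60.7 (middle, SD, n = 4) and 195 ± 37.4 (high, SD, n = 5). The labelling spike-ins moved the same way, from 10.93 ± 0.23 in controls to 10.08 ± 0.17 at the high dose (log2 signal, SD, n = 5 each). All 9, 12 and 5 miRNAs called at the low, middle and high dose were higher than in controls, whereas scaling to the percentile over all probes gave 36 calls at the middle dose, of which 1 was higher, and no scaling gave 70 at the high dose, of which 1 was higher. The median of all tested miRNAs was 0.07, 0.11 and 0.06 above control at the low, middle and high dose. The p53 target miR-34a rose with every dose, by 1.52, 3.11 and 3.49 on the log2 scale from low to high (limma adjusted p 0.0165, 3.59e-05 and 4.88e-06), although its low dose did not pass under 9 of 17 other settings (0.40 to 1.57 over the 17) or with control replicate 10 left out (adjusted p 0.0705). Liver markers were present: hepatocyte miR-122 stood at 6.53 ± 0.17 in controls (SD, n = 5).

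Of the 5 members, 4 were tested. miR-10a, miR-99a and miR-100 were detected on all 19 arrays, with raw signals of 50.7 to 168, 86.6 to 316 and 14.2 to 73.7. miR-10b was detected on 17 arrays but was dim, at 4.44 to 22.7, and 7 arrays lay at the floor. miR-99b was detected on 1 array, low dose replicate 12, with signals of 0.408 to 5.53. Neither of its probes was above background on any array, so no level or fold is given for it.

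miR-10a, the Hoxb-cluster member, was slightly higher in dosed livers under this scaling, and the low dose was the one dose that passed the test. Its differences from control, less the median of all 208 tested miRNAs, were 0.13, 0 and 0.07 from low to high dose. Less the median of miRNAs detected on all arrays, as miR-10a is, they were 0.09, -0.05 and 0.01. The control levels were -1.30, -1.66, -1.67, -1.67 and -1.54 (replicates 1, 10, 17, 19 and 22). The low dose levels were -1.21, -1.49, -1.32, -1.38 and -1.40 (replicates 3, 11, 12, 18 and 24). Control replicate 1 lay within the range of the low dose, so the groups overlapped, and 1 of 5 low dose arrays exceeded every control. No tested member separated from controls without overlap, which 3.37, 5.29 and 4.33% of tested miRNAs did from low to high dose. The middle dose levels were -1.32, -1.21, -1.53 and -1.52 (replicates 5, 6, 14 and 20). The high dose levels were -1.31, -1.37, -1.41, -1.46 and -1.44 (replicates 7, 8, 15, 16 and 23). High dose arrays lay close together, and none of them exceeded the highest control.

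Group means of miR-10a were -1.57 ± 0.16 (control, SD, n = 5), -1.36 ± 0.10 (low, SD, n = 5), -1.39 ± 0.16 (middle, SD, n = 4) and -1.40 ± 0.06 (high, SD, n = 5). In order, the low dose was highest and the control lowest, and no neighbours in that order (low, middle, high, control) passed limma's test after adjustment, although the 95% interval of high against control, 0.03 to 0.23, excluded 0. At the low dose miR-10a was 0.21 higher on the log2 scale (SE 0.045, 95% interval 0.11 to 0.31), which is 1.16-fold (1.08 to 1.24), with a limma adjusted p of 0.0259. It was the only member called there, 1 of 4 tested, where 4.33% of all 208 miRNAs were called, and the direction was the same on the 3 slides (0.09, 0.26 and 0.24). All 5 low dose arrays lay above the mean control of their own slide. The size also stayed above 0 under every scaling tried, at 0.03 to 0.21. Less the median of all miRNAs fitted, it was -0.09 with normexp background correction, where that median was 0.30. Under the other settings with such a median it was 0.05 to 0.21. The call did not hold: it was lost under 11 of 17 other settings and without any one of 7 arrays (low dose replicates 3, 12, 18 and 24, control replicates 10, 17 and 19), with adjusted p up to 0.137 without control replicate 10. In whole liver, more cells of a type and more of a miRNA per cell cannot be told apart, nor can fewer and less.

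The middle dose level of miR-10a differed by 0.11 (SE 0.049, limma adjusted p 0.176) and the high dose level by 0.13 (SE 0.047, limma adjusted p 0.103). With limma no member was called at either dose, where 5.77% and 2.4% of tested miRNAs were. At an unadjusted p under 0.05 there were 1 and 2 of 4, beside 25% and 25.5% of all tested miRNAs. The high dose difference lay on slides 2 and 3 (0.23 and 0.19) and was -0.04 on slide 1, and both doses turned below control with all-probe scaling (-0.38 and -0.14) and with no scaling (-0.46 and -0.58). The middle dose also turned with quantile normalization (-0.06), spike-in scaling (-0.13), the series' value table (-0.03) and the scanner's signal per miRNA (-0.03). Control replicate 1 weighed on these values: without it the middle dose difference was 0.16 and the high dose difference 0.17, and both were called (limma adjusted p 0.0472 and 0.0357).

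Averaged over the 3 doses, the difference from control gave a 2nd call for miR-10a, at 0.15 (SE 0.038, 1.11-fold, 1.05 to 1.17, limma adjusted p 0.0329), where 8.17% of tested miRNAs were called. It shares the low dose and control arrays with the comparison above and is no separate evidence. Less the median of all tested miRNAs the averaged difference was 0.07, and less that of miRNAs detected on all arrays it was 0. It turned to -0.13 with all-probe scaling and -0.34 with no scaling, and without control replicate 10 it was 0.13 (limma adjusted p 0.162). The call was also lost without control replicates 17 or 19, low dose replicates 18 or 24, or high dose replicate 23 (limma adjusted p 0.0539 to 0.0827). The linear trend over dose gave no call for miR-10a (0.00278 log2 per mg/kg/day, SE 0.00259, limma adjusted p 0.562), and the low dose was not distinguishable from the high (high minus low -0.08, 95% interval -0.18 to 0.02).

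Both probes of miR-10a gave the same low dose value. Each was measured over 10 spots, and the brighter and the dimmer rose by 0.21 (limma adjusted p 0.0283 and 0.0323 over 328 probes). At the high dose they read 0.13 and 0.18, and neither passed (limma adjusted p 0.0872 and 0.0652).

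miR-10b, the Hoxd-cluster member, was too dim to follow by dose. Its means were -4.71 ± 0.16 (control, SD, n = 5), -4.73 ± 0.05 (low, SD, n = 5), -4.38 ± 0.39 (middle, SD, n = 4) and -4.53 ± 0.34 (high, SD, n = 5). At the floor were 3 control arrays, 1 of the low, 1 of the middle and 2 of the high dose, so each mean is an upper bound. After scaling the highest levels were middle dose replicate 14 at -3.86 and high dose replicate 8 at -3.96, whereas the highest raw signal, 22.7, was that of control replicate 22. The differences were -0.03 (95% interval -0.41 to 0.34), 0.34 (-0.07 to 0.75) and 0.17 (-0.21 to 0.56) from low to high dose, with limma adjusted p of 1, 0.278 and 0.636. Each interval includes both 0 and the miR-10a difference at that dose. The middle dose value turned to -0.05 with all-probe scaling and -0.04 with no scaling, and the high dose value to -0.01, -0.05 and -0.25 with all-probe scaling, quantile normalization and no scaling.

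**Figure D1:**
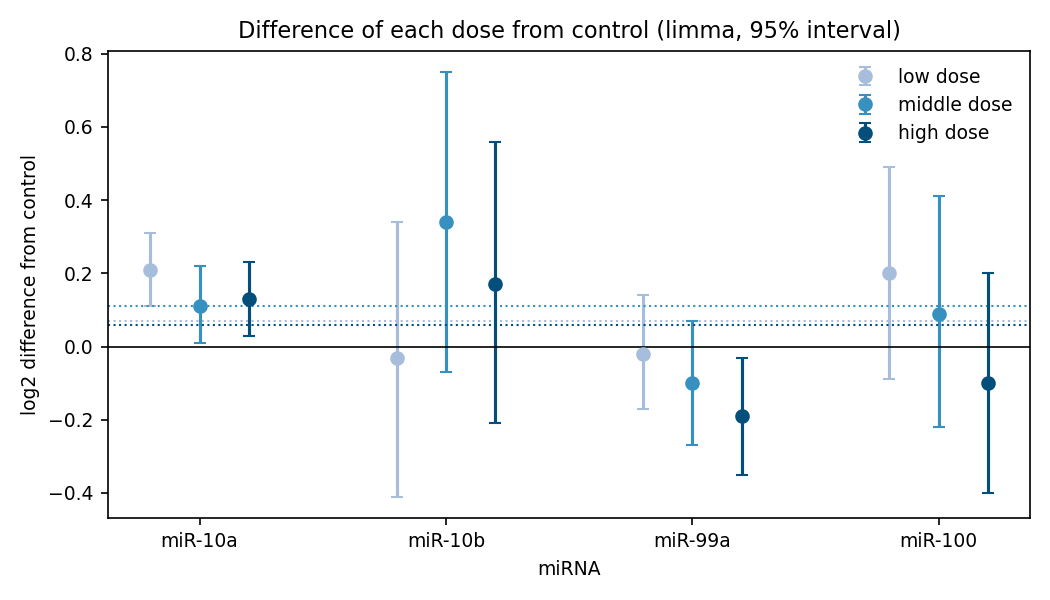
Log2 difference of each dose from control (y axis) for the 4 tested members (x axis), with limma 95% intervals; dotted lines in the same colours mark the median of all 208 tested miRNAs at each dose (0.07, 0.11 and 0.06). The miR-10a points lie above 0 and the miR-99a points below it under the scaling used. The middle and high dose miR-10a points turn below 0 with all-probe or no scaling. The middle dose point also turns with quantile and spike-in scaling, the series' value table and the scanner's signal per miRNA.

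miR-99a, the member of the let-7c and miR-125b-2 cluster, was at or below its control level at every dose under this scaling and was called at none. Its differences from control, less the median of all tested miRNAs, were -0.09, -0.2 and -0.25 from low to high dose. Less the median of miRNAs detected on all arrays, they were -0.14, -0.26 and -0.31. Under every processing setting with such a median they stayed negative, from -0.02 (low dose, raised floor) to -0.59 (middle dose, normexp). Distance from the median was not tested. The control levels were -0.32, -0.88, -0.49, -0.66 and -0.73, in the replicate order given for miR-10a. The low dose levels were -0.44, -0.59, -0.69, -0.73 and -0.69. Controls spread more widely than the low dose and enclosed all of it. The middle dose levels were -0.47, -0.48, -0.64 and -0.92. The high dose levels were -0.66, -0.64, -0.87, -0.68 and -0.87. One middle dose array, replicate 20, lay below every control, and all high dose arrays lay within the control range.

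Mean levels of miR-99a were -0.62 ± 0.22 (control, SD, n = 5), -0.63 ± 0.12 (low, SD, n = 5), -0.63 ± 0.21 (middle, SD, n = 4) and -0.74 ± 0.12 (high, SD, n = 5), and no neighbours in that order differed beyond their spread. The differences were -0.02 (95% interval -0.17 to 0.14), -0.10 (-0.27 to 0.07) and -0.19 (-0.35 to -0.03), with limma adjusted p of 1, 0.455 and 0.127. Without the slide block these differences were -0.01, -0.01 and -0.12, and none was called. With the block, the high dose value is 0.878-fold (0.785 to 0.982). It was -0.32 on slide 1 and -0.24 on slide 3 but 0.11 on slide 2, whose single control, replicate 10, was the lowest of the 5. Without that control the high dose difference was -0.29 and was called (limma adjusted p 0.0284). The high dose was also called with no scaling (-0.89, limma adjusted p 0.0184) and in the series' value table (-0.17, limma adjusted p 0.0427). With all-probe scaling the middle dose was called instead (-0.59, limma adjusted p 0.0178), as it was after quantile normalization (-0.34, limma adjusted p 0.0487).

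The trend of miR-99a over dose was -0.00791 log2 per mg/kg/day (SE 0.0027, limma adjusted p 0.0947) and was not called, where 0.962% of tested miRNAs were. Its dimmer probe gave larger values than the brighter one, -0.15 and -0.26 with the middle and high dose, and its limma adjusted p was 0.152 and 0.0539 over the 328 probes.

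miR-100, which differs from miR-99a by 1 base and is transcribed with let-7a-2 and miR-125b-1, varied more between arrays. Its dimmer probe was above background on only 2 of 19 arrays. Its values and ratios therefore rest on 1 probe, with a median raw signal of 30.5. The part of low signal in this spread was not tested. The control levels were -2.85, -3.36, -3.04, -3.24 and -2.73. The low dose levels were -2.91, -2.96, -2.62, -2.77 and -3.00. The low dose sat in the upper part of the control range, with 1 array above it. The middle dose levels were -3.05, -2.62, -2.87 and -3.07. The high dose levels were -3.11, -2.70, -3.21, -3.29 and -3.28. High dose replicate 8 stood above every control, while the other 4 lay in the lower part of the control range.

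Mean levels of miR-100 were -3.05 ± 0.26 (control, SD, n = 5), -2.85 ± 0.15 (low, SD, n = 5), -2.90 ± 0.21 (middle, SD, n = 4) and -3.12 ± 0.24 (high, SD, n = 5). Ordered from low to middle, control and high, neighbours did not differ beyond their spread. The differences from control were 0.20 (95% interval -0.09 to 0.49), 0.09 (-0.22 to 0.41) and -0.10 (-0.40 to 0.20), with limma adjusted p of 0.668, 0.801 and 0.718. The middle dose value turned to -0.39 with all-probe scaling, -0.11 after quantile normalization, -0.48 with no scaling and -0.15 with spike-in scaling. The low dose value came largely from slide 2, where it was 0.58 against the lone control replicate 10, beside -0.06 and 0.12 on slides 1 and 3. Without control replicate 10 the low dose difference was 0.10. High minus low was -0.30 (95% interval -0.60 to -0.01, limma adjusted p 0.247). No member was called between any pair of doses, where 0.481, 0.481 and 0% of tested miRNAs were called for middle minus low, high minus low and high minus middle. At an unadjusted p under 0.05 these gave 0, 2 and 0 of 4 members, beside 7.69, 18.3 and 6.73% of all. The 4-group F test also called none, where 0.962% were (miR-10a adjusted p 0.0851, limma).

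The ratio of a pair of members within an array does not depend on scaling by a common factor per array, and shows unequal change only. Quantile normalization is no such scaling and was not tried for the ratios. All 3 pairs of the members detected on every array were compared with control at 3 doses, 9 comparisons in all, by exact two-sided permutation tests. The ratio of miR-10a over miR-99a was higher in dosed livers by 0.22, 0.19 and 0.30 on the log2 scale, and none of the 9 comparisons passed after Benjamini-Hochberg adjustment. Its control values were -0.98, -0.77, -1.18, -1.01 and -0.81. The low dose values were -0.77, -0.89, -0.62, -0.65 and -0.71, and those of the middle dose -0.84, -0.73, -0.89 and -0.60. High dose values were -0.66, -0.73, -0.54, -0.77 and -0.57. All 5 high dose arrays lay above all controls, although high dose replicate 16 and control replicate 10 both read -0.77 to 2 decimals. So did 4 of 5 low dose and 2 of 4 middle dose arrays.

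For the high dose this ratio had an exact permutation p of 0.00794, the smallest that 252 arrangements allow, and an adjusted p of 0.0714. For the low and middle dose the exact permutation p was 0.0397 and 0.111 (adjusted 0.179 and 0.25). Groups that do not overlap were common among ratios: 11.9% of the 7626 pairs of miRNAs never at the floor did not overlap between high dose and control, with 3.82% (low dose) and 11.1% (middle dose). Within slides the high dose difference was 0.28 (exact permutation within slides p 0.0278, the smallest possible, adjusted 0.25), and it was 0.28, 0.12 and 0.43 on slides 1, 2 and 3. Read by the dimmer probes, a setting chosen after seeing the data, the middle and high dose ratios rose by 0.32 and 0.45. Both passed (exact permutation adjusted p 0.0238), but here the adjustment covered only this pair at 3 doses, fewer comparisons than above.

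**Figure D2:**
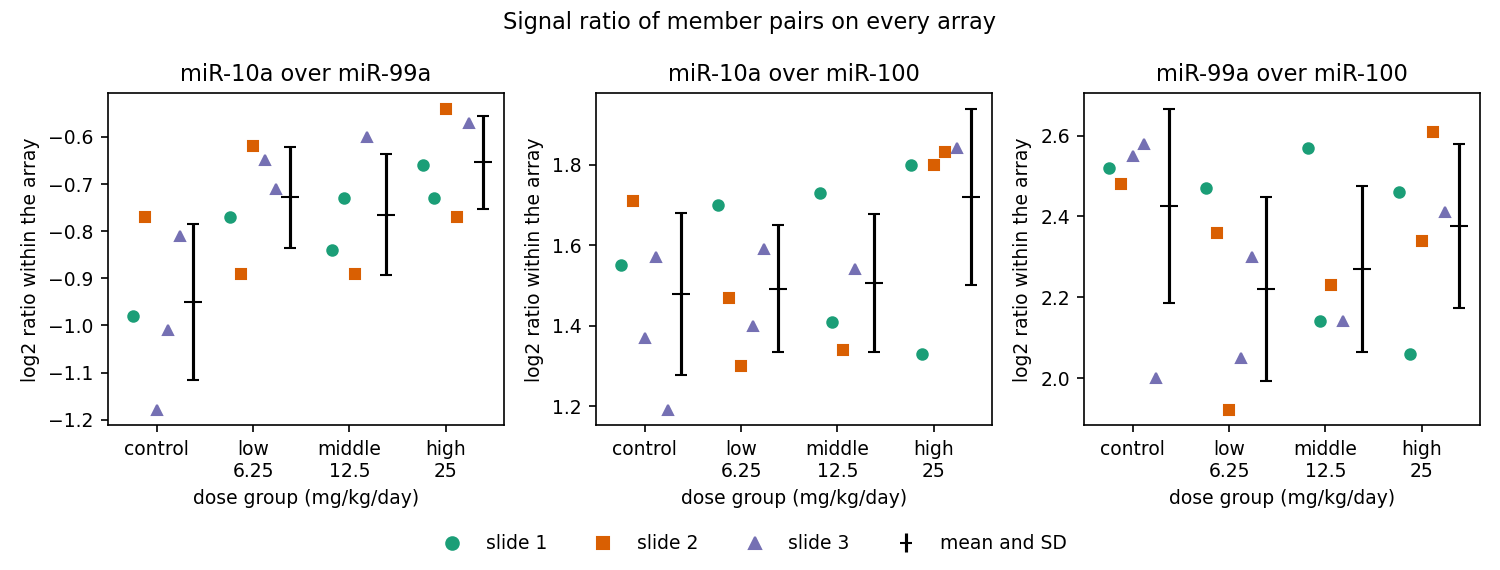
Log2 ratio of each pair of members within an array (y axis) by dose group in mg/kg/day (x axis); colour and shape give the slide, and black bars give the mean and SD. The 5 high dose arrays of miR-10a over miR-99a lie between -0.77 and -0.54 and the controls between -1.18 and -0.77, while the other 2 pairs overlap at every dose.

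The ratio of miR-10a over miR-100 was 1.48 ± 0.20 in controls (SD, n = 5) and 1.72 ± 0.22 at the high dose (SD, n = 5). The high dose difference was 0.24 (exact permutation p 0.103, adjusted 0.25), with 4 of 5 arrays above all controls and replicate 8 at 1.33. At the low and middle dose it was 0.01 and 0.03. The ratio of miR-99a over miR-100, the pair with the same seed, was 2.43 ± 0.24 in controls (SD, n = 5) and differed by -0.21, -0.16 and -0.05 from low to high dose (exact permutation adjusted p 0.329, 0.512 and 0.827).

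The members' cluster partners were then examined, since a shared primary transcript can give several miRNAs. All 5 on the list were tested: let-7a, let-7c and let-7e, which restrain growth and developmental timing genes, and miR-125a-5p and miR-125b-5p. None was called at a single dose, and their median difference was 0.15, 0.19 and 0.15 at the low, middle and high dose, against 0.07, 0.11 and 0.06 for all tested miRNAs. For miRNAs detected on all arrays, as all partners but miR-125a-5p were, the median was closer, at 0.12, 0.16 and 0.12. In the mean of the doses 1 of 5 was called, let-7e, at 0.36 (SE 0.10, limma adjusted p 0.0477). That call was fragile: it was lost without any one of 13 of the 19 arrays, where the value was 0.27 to 0.40 over all 19, and under 10 of 16 other settings (-0.12 to 0.44 over the 16). let-7e is the neighbour of the undetected miR-99b, and its level went from -2.51 ± 0.13 in controls (SD, n = 5) to -2.17 ± 0.20, -1.96 ± 0.31 and -2.06 ± 0.24 at the 3 doses (SD, n = 5, 4 and 5). let-7c, the neighbour of miR-99a, gave 0.17, 0.19 and 0.15, where miR-99a gave -0.02, -0.10 and -0.19. miR-125b-5p, made from both the miR-99a and the miR-100 cluster, gave 0.08, 0.19 and 0.03. let-7a, let-7c and miR-125b-5p are each made from more than one gene, so the array cannot assign them to one cluster. Changes of partner and member within a cluster were not tested against each other.

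None of the other strands of these hairpins and clusters was seen: of 12 names listed, 5 were on the array, among them miR-10a*, miR-10b* and miR-99b*, and no array detected any. Other Hox-locus miRNAs were equally silent. miR-196a, miR-196b, miR-615-3p and miR-615-5p, 4 of 6 listed names, were on the array and detected on none. miR-10a was thus the one Hox-locus miRNA on these lists that was detected on every array.

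Markers of other cells were set beside the low dose miR-10a call. The endothelial miR-126-3p also rose at the low dose, by 0.29 (SE 0.066, limma adjusted p 0.0268), as 1 of 2 tested endothelial markers, and this call was lost without any one of 6 arrays (low dose replicates 3, 12, 18 and 24, control replicates 10 and 19, adjusted p up to 0.0705) and under 7 of 17 other settings (0.11 to 0.30 over the 17). The summed endothelial level was 1.06 to 1.52 in controls, 1.58 to 1.70 at the low dose, 1.42 to 1.59 (middle dose) and 1.34 to 1.53 (high dose). The low dose did not overlap the controls, which held for 3.37% of tested miRNAs. That sum repeats miR-126-3p, which averaged 1.32 in controls, since miR-126-5p lay next to the floor at -4.78. Of the leukocyte markers 1 of 3 tested, the myeloid miR-223, rose at each dose, by 0.37, 0.48 and 0.39 (limma adjusted p 0.0382, 0.0198 and 0.0482). Those calls were lost in 9, 3 and 15 of 19 left-out arrays and under 10, 9 and 10 of 17 other settings, whose lowest values were 0.11, -0.09 and -0.32. miR-150 and miR-155 were detected on no array. The summed leukocyte level was -0.15 to 0.30 in controls and 0.30 to 0.41, 0.12 to 0.50 and 0.03 to 0.54 at the doses. The part of these cells in the miR-10a result was not tested.

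The other marker lists held no call at any dose. Hepatocyte markers summed to 6.57 to 6.97 in controls and 6.67 to 6.98, 6.75 to 7.02 and 6.50 to 7.12 at the low, middle and high dose, with 0 of 3 called. Stellate and smooth muscle markers summed to -1.28 to -0.66 in controls and -0.98 to -0.74, -0.93 to -0.06 and -1.28 to -0.47 from low to high dose, with 0 of 4 called and miR-145 detected on no array. All 4 were 0.28 to 0.83 higher with the middle dose, which did not pass. Erythroid markers (0 of 2) summed to 2.88 to 3.37 in controls and 2.58 to 3.39, 2.37 to 3.75 and 2.60 to 3.12 from low to high dose. Bile duct markers (0 of 5) reached 1.48 on a high dose array and muscle markers (0 of 2) 2.05 on a low dose array, against highest control values of -1.47 and 1.54.

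Likeness between miRNAs was described by the SD of their log2 ratio over the 19 arrays, among the 136 other miRNAs detected on all arrays. Arrays share their scaling and labelling, so these values are descriptions. Closest to miR-10a were miR-20a (SD 0.077), miR-24 (0.0893) and miR-19b (0.096), against a median of 0.22. Closest to miR-99a were miR-29a (0.106), miR-148a (0.122) and miR-15a (0.129), against a median of 0.24. Closest to miR-100 were miR-23a (0.168), miR-24 (0.171) and miR-29a (0.18), against a median of 0.309. No member was among another's 3 nearest, and ranks depended on the side. From miR-100, miR-10a ranked 8 of 136 (SD 0.202) and miR-99a 13 (SD 0.218), while from miR-10a they ranked 63 and 46. From miR-99a, miR-10a ranked 14 (SD 0.164) and miR-100, which has the same seed, 53.

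**Figure D3:**
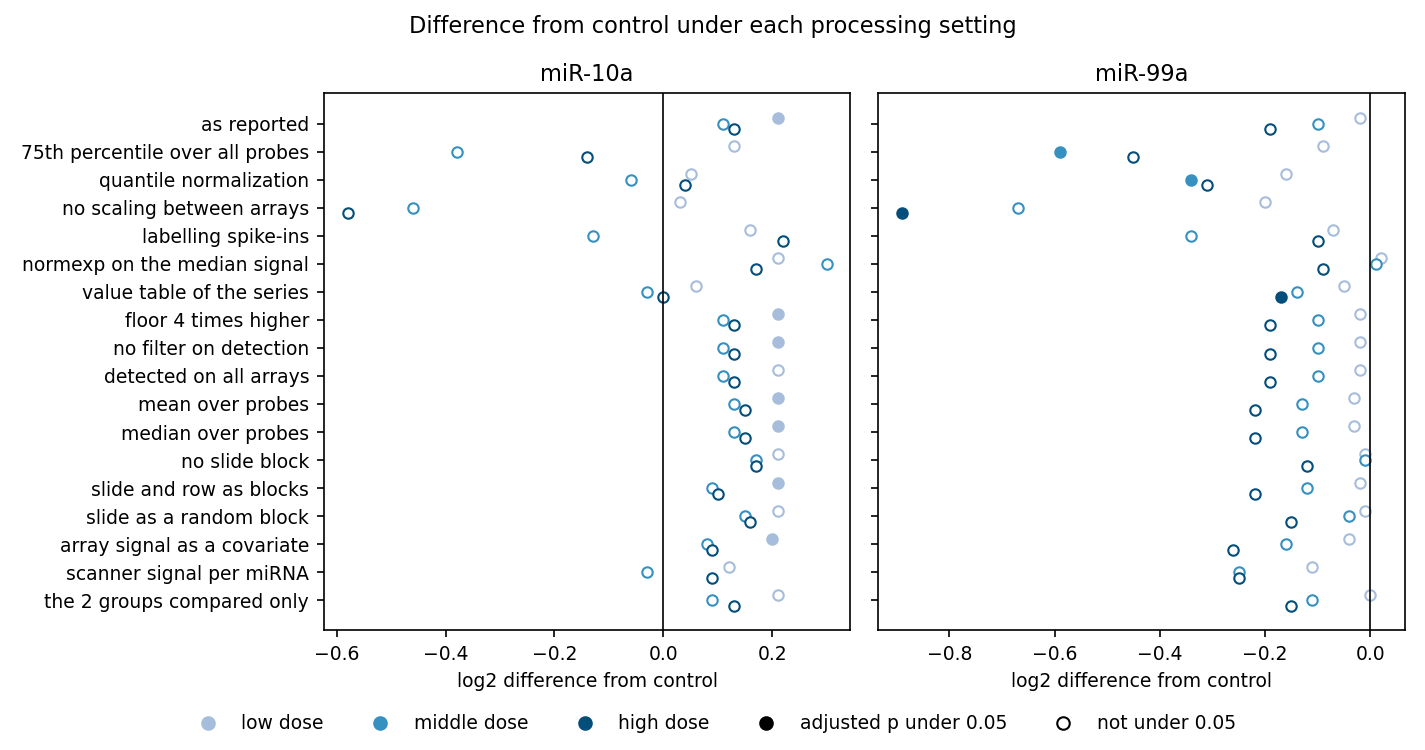
Log2 difference from control (x axis) of miR-10a and miR-99a at each dose under each processing setting (y axis); filled points have an adjusted p under 0.05. The low dose miR-10a points stay above 0, from 0.03 to 0.21. Its middle and high dose points fall below 0 with all-probe or no scaling, to -0.46 and -0.58 without scaling. The middle dose point also falls below 0 under quantile and spike-in scaling, in the series' value table and in the scanner's signal per miRNA.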

How the data were processed

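Spot intensity was background-subtracted by Agilent Feature Extraction 10.7.3.1 with no scaling between arrays, per the file headers; the authors deposited 1 file per array and a value table on the log2 scale, whose method no source used here states. The scaling of that table stays unknown, and 636 of its 692 names were matched. Labelling used Cyanine 3-pCp, per the labels. Control spots were left out (13920 of 14635 spots per array stayed, 0 saturated), and of these, spots marked as outliers on an array were then dropped. Remaining spots of each of 1937 probes were averaged, and arrays were scaled to their 75th percentile over 220 probes. The brightest probe stood for a miRNA. The 208 tested miRNAs were fitted with limma 3.58.1 (R 4.3.3), all groups together, slide (3) as a fixed block. Each slide held all 4 groups, but in 2 rows that were uneven between them. All high dose and most middle dose arrays lay in row 2, and most control and low dose arrays in row 1. Row and dose therefore cannot be fully told apart. With slide and row as blocks, 8, 2 and 1 miRNAs were called at the low, middle and high dose, against 9, 12 and 5. The number of arrays limits the precision. limma was checked on simulated data.

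Alternatives changed scaling, background correction (normexp with an offset of 50 on the median spot signal, since a mean signal was not among the columns used), floor, detection filter, probe rule, blocks and source table, and left out each array in turn. Named miRNAs were the members, tested miRNAs of the listed clusters, strands, Hox loci and markers, each member's 3 nearest miRNAs, and miR-34a. The members and lists were chosen with earlier results of these data known. RefSeq sequences, positions and neighbouring genes are of GRCm38.p6, and the array grid names an older build, mm9, whose coordinates were not used.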

Additional observations from a re-analysis of the deposited data

Results flagged for a closer look

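Of 32 groups of 4 or 5 arrays checked for a single array far from the rest, 3 held one. Chance flags about 1 in 20 where values are clear of the floor. The miR-99b groups, counted in the 32, lay wholly at the floor and could not be flagged. The miR-10b level of control replicate 22 was -4.43, with the nearest control at -4.76 and the others at the floor, so its distance is partly set by the floor. Without this control the low dose difference of miR-10b turned from -0.03 to 0.04. The miR-10a over miR-100 ratio of high dose replicate 8 was 1.33, with the nearest high dose array at 1.80. The same array had the highest miR-100 level of its group, -2.70, and the highest miR-10b level, -3.96. The miR-99a over miR-100 ratio of control replicate 22 was 2.0, with the nearest control at 2.48, and its miR-100 level, -2.73, was the highest of the controls.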

How the results depend on the processing

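No paired analysis was possible because the groups share no replicate number, and slide, which held all 4 groups, served as the block. Row within the slide was uneven between groups, as given above. The low dose count of members called was 1 and became 0 with all-probe scaling, quantile normalization, no scaling, labelling spike-ins, normexp, the value table, only miRNAs detected on all arrays, no slide block, slide as a random block, the scanner's signal per miRNA (chosen after seeing the data) or only the 2 groups compared. The mean-of-doses count was 1 and became 0 under the same settings (except quantile normalization, where it was miR-99a at -0.27, and the fit of 2 groups, which has no such value) and with slide and row as blocks or array signal as a covariate. The middle dose count was 0 and became 1 with all-probe scaling and quantile normalization, and the high dose count 1 with no scaling and the value table. The F test gave 1 with all-probe scaling, the trend 3 with no scaling and 1 with the value table, the mean or the median over probes, and differences between doses 2 with all-probe scaling. The ratios gave 6 calls with normexp and 2 with dimmer probes. The normexp calls were miR-10a over miR-99a and miR-99a over miR-100, each at all 3 doses. The normexp offset of 50 compresses dim signals, and its part in these calls was not tested. The dimmer-probe count came from 1 pair only, miR-10a over miR-99a, with adjustment over its 3 doses. Leaving out 1 array gave 0 to 1 calls for each of the first 6 tests (each dose, mean, F and trend) and 0 for differences between doses and ratios; the trend call came without control replicate 10 and the F call without control replicate 1.

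Reversals were as follows. All-probe scaling gave middle dose values of -0.39, -0.38 and -0.05 (miR-100, miR-10a, miR-10b), high dose values of -0.14 and -0.01 (miR-10a, miR-10b) and mean-of-doses values of -0.21, -0.13 and -0.03 (miR-100, miR-10a, miR-10b). Quantile normalization gave -0.11 and -0.06 at the middle dose (miR-100, miR-10a), -0.05 at the high dose (miR-10b), and -0.14 and -0.05 in the mean (miR-100, miR-10b). No scaling gave -0.48, -0.46 and -0.04 at the middle dose (miR-100, miR-10a, miR-10b), -0.58 and -0.25 at the high dose (miR-10a, miR-10b) and -0.42, -0.34 and -0.15 in the mean (miR-100, miR-10a, miR-10b). Spike-ins gave -0.15 and -0.13 at the middle dose (miR-100, miR-10a) and 0 in the mean (miR-100). normexp gave 0.30 for miR-10b and 0.02 for miR-99a (low dose), 0.01 for miR-99a (middle dose), 0.20 for miR-100 at the high dose, and -0.07, -0.24 and -0.09 for miR-10a over miR-100. The value table gave 0 for miR-100 and miR-10b (low dose), 0 and -0.03 for miR-100 and miR-10a (middle dose), -0.03 in the mean (miR-100) and -0.01 for miR-10a over miR-100 at the middle dose. Array signal as a covariate gave 0.07 (miR-100, high dose). The scanner's signal gave -0.15, -0.03 and 0 at the middle dose (miR-100, miR-10a, miR-10b), -0.10 at the high dose (miR-10b), -0.08 and -0.04 in the mean (miR-100, miR-10b) and -0.02 for miR-10a over miR-100 at the low dose. The fit of 2 groups gave 0 for miR-99a at the low dose, and permutation within slides gave -0.02 for miR-10a over miR-100 at the middle dose. The cause of these changes was not tested.

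Leave-one-out ranges that crossed 0 were -0.08 to 0.04 (miR-10b, low dose), -0.11 to 0.03 (miR-99a, low dose), 0 to 0.17 (miR-100, middle dose), -0.04 to 0.14 (miR-100, mean), -0.06 to 0.07 and -0.05 to 0.09 (miR-10a over miR-100, low and middle dose) and -0.16 to 0.03 (miR-99a over miR-100, high dose). Dim signal limits miR-10b and miR-99b.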
